A study of Mus musculus with 16 samples.

Results

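The comparison described here is fibril loading of mouse neurons cultured without other cells added. Of the 16 libraries of the series, 8 belong to it, chosen by their titles: 4 of neurons given α-synuclein fibrils and 4 of untreated neurons, both kept alone. The neurons were primary cortical neurons of C57BL/6 embryos, with no genetic change named, taken at embryonic day 15 to 16 and grown for 14 days. Loaded neurons had received 0.1 µM of fibrils carrying the fluorescent dye Atto488 for 16 h and were then washed in saline; the untreated neurons had received none. The other 8 libraries repeat the 2 treatments in neurons that spent a further 6 h with microglia, the immune cells of the brain. They serve here as a second fibril comparison, and their spread enters the model behind each p-value and SE. What the labels limit is the controls: they name no unaggregated α-synuclein and no dye alone, so fibril, protein and dye cannot be told apart. Replicates are numbered 1 to 4 in the order of the sample list, and the labels name no culture or animal for any of them. A p-value here therefore speaks only of how far the 16 libraries of the series spread within their groups, and that spread may be technical.

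α-Synuclein is a presynaptic protein that aggregates into fibrils in Parkinson's disease, and fibrils added to cultured neurons bind at the surface, enter by endocytosis and collect in lysosomes. Cells under oxidative or metal stress use dedicated gene programmes. The transcription factor Nrf2 turns on antioxidant and glutathione enzymes through antioxidant response elements, and the factor MTF1 turns on metallothioneins, small cysteine-rich proteins that bind zinc and copper, through metal response elements. In brain cultures these genes are more active in astrocytes, the supporting glia that also grow in cortical cultures, than in neurons.

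Counts came from 3′ ends of transcripts, so levels are given as CPM, a gene's counts scaled to the library's total, with no division by length. The 8 libraries held 7881788 to 13986374 counts and 10817 to 12733 detected genes. The ribosomal RNA gene Rn45s took 11.6% to 26.8% of the counts of untreated libraries and 12.4% to 21.9% of those of loaded ones. Some genes were at 0 in a library although their mean over the other libraries of the series was at least 100 counts. Untreated replicates 1 to 4 had 95, 93, 301 and 486 such genes, and loaded replicates 1 to 4 had 244, 347, 524 and 190. A value at or near 0 in a single library is therefore uncertain as a level. Correlations of log2 CPM were 0.665 to 0.753 between untreated libraries, 0.656 to 0.734 between loaded libraries and 0.614 to 0.772 across the groups, ranges that overlap widely. Those of loaded replicates 1 to 3 with the untreated libraries were 0.614 to 0.728. Loaded replicate 4 stood nearer to the untreated libraries (0.697 to 0.772) than to the other loaded ones (0.656 to 0.692). Untreated replicate 1 was about as near to the loaded libraries (0.669 to 0.728) as to the other untreated ones (0.665 to 0.719). Values without loaded replicate 4 are given beside the lists and for several of the genes below. Whether labels of libraries were exchanged was not tested, and groups follow the labels throughout.

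No gene passed the test. With edgeR's quasi-likelihood test over 13139 genes, 0 had a Benjamini-Hochberg adjusted p under 0.05 (0.0%), and the smallest adjusted p was 0.37. At an unadjusted p under 0.05 there were 909 genes (6.92%), 529 of them higher with fibrils (4.03%) and 380 lower (2.89%). Without loaded replicate 4 these were 711 and 756. The model was fitted on all 16 libraries. Fitted on the 8 libraries alone, the 2 counts were 381 and 226, and 0 genes were called. Libraries of the 2 groups did not overlap for 257 genes that were higher (1.96%) and for 292 that were lower (2.22%). limma-voom and limma on the deposited normalized values also called 0 genes, while DESeq2 called 173 (1.32%), 102 higher and 71 lower. In 112 of these 173 genes every library of a group was at 0, and in 54 the groups did not overlap. All differences below are therefore values that did not pass a test over all genes, and a direction is stated for these libraries only.

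The metallothionein genes Mt2 and Mt1 had the highest mean CPM of the 529 genes that stood higher with fibrils at an unadjusted p under 0.05. Mt1, on chr8:94179082-94180327, plus strand in mm10, was at 6875, 3996, 3015 and 2269.8 CPM in untreated replicates 1 to 4 and at 15019.8, 25622, 9448 and 4712 CPM in loaded replicates 1 to 4. Only loaded replicate 4 lay inside the untreated range. The log2 difference was 1.76 ± 0.46 (SE; adjusted p = 0.532 by edgeR). Mt2, its neighbour at chr8:94172664-94173568, plus strand, was at 5161, 6300.0, 5838 and 3927 CPM untreated and at 23001, 33333, 8816 and 8934 CPM loaded. Its groups did not overlap, and the lowest loaded library was above the highest untreated one. The log2 difference of Mt2 was 1.80 ± 0.48 (SE; adjusted p = 0.567 by edgeR). Together Mt1 and Mt2 came to 12036, 10296, 8852 and 6197 CPM in the untreated libraries and to 38020.3, 58956, 18264 and 13646 CPM in the loaded ones. Mt3, the metallothionein of brain that astrocytes and neurons make, was at 166, 202, 66.2 and 95.1 CPM untreated and 411, 792, 93.9 and 198 CPM loaded, and its groups overlapped. Without loaded replicate 2, the highest library for all 3 genes, the log2 difference was 1.28 for Mt1 and 1.37 for Mt2, and without loaded replicate 4 it was 2.05 and 2.03.

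The promoters of these 3 genes, which lie side by side, are shown because Mt1 and Mt2 lead that list and Mt3 lies beside them. Each is the 250 bases before the start site from RefSeq (GRCm38.p6, the assembly also called mm10), on the plus strand, with matches to the core of the metal response element in capitals (TGCACNC or TGCGCNC, and GNGTGCA or GNGCGCA for the other strand).
Mt1, chr8:94178839-94179088: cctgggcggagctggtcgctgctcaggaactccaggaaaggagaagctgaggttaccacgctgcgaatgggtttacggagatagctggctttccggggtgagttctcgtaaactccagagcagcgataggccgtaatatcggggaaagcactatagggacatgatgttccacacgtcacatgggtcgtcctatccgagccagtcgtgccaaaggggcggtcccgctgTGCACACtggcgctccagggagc
Mt2, chr8:94172368-94172617: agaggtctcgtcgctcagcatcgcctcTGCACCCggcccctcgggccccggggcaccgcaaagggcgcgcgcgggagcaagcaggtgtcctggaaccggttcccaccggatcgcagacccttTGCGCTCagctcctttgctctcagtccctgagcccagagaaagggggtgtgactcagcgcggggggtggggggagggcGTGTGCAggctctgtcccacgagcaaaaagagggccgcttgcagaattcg
Mt3, chr8:94152357-94152606: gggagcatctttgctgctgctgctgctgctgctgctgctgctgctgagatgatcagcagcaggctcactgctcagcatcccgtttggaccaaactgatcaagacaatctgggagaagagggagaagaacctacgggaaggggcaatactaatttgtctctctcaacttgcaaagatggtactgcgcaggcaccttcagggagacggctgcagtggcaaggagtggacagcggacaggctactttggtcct
Mt1 held 1 match, starting 23 bases before the start site, and Mt2 held 3, starting 223, 128 and 50 bases before it. Mt3 held 0 in this window. The RefSeq windows end at 94179088 for Mt1 and 94172617 for Mt2, while the positions given above start at 94179082 and 94172664. The start sites of Mt1 and Mt2 thus differ between the 2 annotations. Matches outside the windows were not counted, so these are not counts of all metal response elements of a gene. The same core occurred in 35.5% of the tested genes that had a promoter in the table, so a match is common and is given only as a description of the letters.

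Most genes that Nrf2 is known to drive lay above 0. Of 34 tested, 31 were above 0 and 3 (Gclc, Cbr1 and Gsr) below, against 47.5% of all genes above 0. The median log2 difference was 0.92, against -0.06 for all genes, and 1.19 without loaded replicate 4. Over 20 alternative settings, each library left out included, this median ran from 0.75 to 1.35. At an unadjusted p under 0.05, 13 were higher and 0 lower, against 4.03% and 2.89% of all genes. In 0 of the 34 were the groups free of overlap, against 1.96% of all genes higher and 2.22% lower. Taldo1, an enzyme of the pentose phosphate pathway that supplies NADPH, was at 259, 203, 375 and 224 CPM untreated and 1096, 1112, 999 and 345 CPM loaded. Loaded replicates 1 to 3 stood above every untreated library and loaded replicate 4 among them. The log2 difference was 1.74 ± 0.36 (SE; adjusted p = 0.37 by edgeR), and 2.01 without loaded replicate 4. G6pdx, which opens the same pathway, was at 29.7, 8.88, 15.3 and 22.9 CPM untreated and 112, 72.3, 107 and 16.0 CPM loaded.

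Gstm1, a glutathione transferase, was at 1596, 809, 898 and 646 CPM untreated and 4056, 3955, 2348 and 815 CPM loaded, and Ftl1, the light chain of the iron store ferritin, at 2012, 1056, 1302 and 748 and 3259.7, 4445, 3115 and 1292 CPM. In both genes loaded replicates 1 to 3 exceeded all untreated libraries and loaded replicate 4 did not. The following members were chosen after their values were seen. Hmox1, which breaks down haem, was at 713, 344, 524 and 142 CPM untreated and 1788, 2105, 886 and 353 CPM loaded, a log2 difference of 1.58 ± 0.53 (SE). Srxn1, which repairs oxidised peroxiredoxins, differed by 1.26 ± 0.45, the thioredoxin reductase Txnrd1 by 1.03 ± 0.47 and the glutathione synthesis subunit Gclm by 1.19 ± 0.55. Nqo1, a quinone reductase and a standard Nrf2 target, was low, at 15.9, 7.03, 0 and 0.0732 CPM untreated and 30.4, 36.2, 5.32 and 23.5 CPM loaded. The cystine carrier Slc7a11 differed least of these, by 0.60 ± 0.98, with untreated replicate 1 the highest of all 8 libraries at 1007 CPM.

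**Figure D1:**
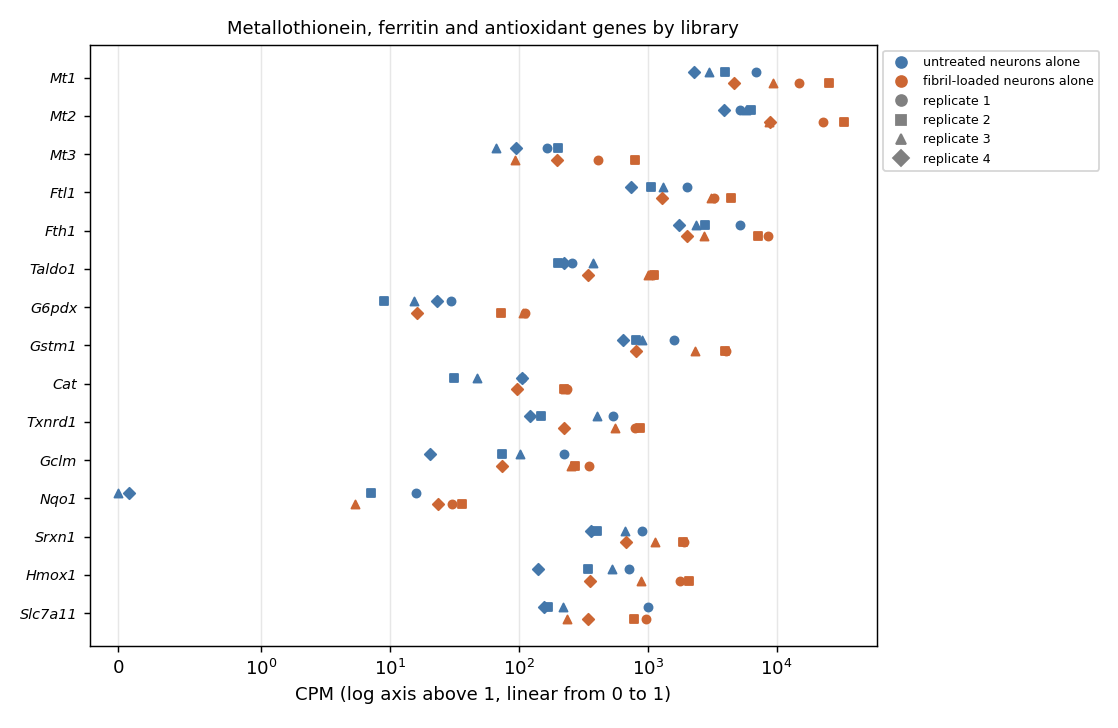
CPM of 15 metallothionein, ferritin and antioxidant genes in the 4 untreated (blue) and 4 loaded (orange) libraries of neurons alone, with a marker shape per replicate; the axis is logarithmic above 1 CPM and linear below. Loaded replicates 1 and 2 lie to the right in most genes, and loaded replicate 4 lies close to the untreated libraries, as in Taldo1 (345 CPM against 203 to 375 CPM untreated).

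The antioxidant response element core TGACNNNGC (GCNNNGTCA on the other strand) was found in the promoter window of 8 of the 28 Nrf2 targets that had one in the table, or 28.6% of genes, against 13.9% of tested genes. The list was made of known targets, so this share describes the list and not the response.

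Genes of the cytosolic ribosome were the list with the most members, 17, whose groups did not overlap, and also the largest list. Of 77 tested, 66 were above 0 and 11 below, with a median log2 difference of 0.60, or 0.71 without loaded replicate 4. Over 20 alternative settings, each library left out included, this median ran from 0.47 to 0.71. At an unadjusted p under 0.05, 35 were higher and 0 lower, against 4.03% and 2.89% of all genes. All 17 without overlap were higher, against 1.96% of all genes. Rps29, of the small subunit, was at 429.9, 739, 897 and 618 CPM untreated and 1823, 1930.2, 1657 and 1054 CPM loaded, a log2 difference of 1.27 ± 0.32 (SE; adjusted p = 0.485 by edgeR). Its groups did not overlap. Rplp1, of the stalk of the large subunit, was at 825, 1259, 1301 and 823 CPM untreated and 2451, 3053, 2151 and 1447 CPM loaded, again without overlap. The small subunit genes had a median of 0.67 (28 of 31 above 0) and the large subunit genes one of 0.56 (38 of 46). The exception farthest below was Rpl30, at 32.1, 246, 33.0 and 294 CPM untreated and 64.0, 9.93, 0.819 and 79.2 CPM loaded, where single libraries ranged widely in both groups. Summed over the list, the untreated libraries held 22444, 28177, 26870.5 and 21828 CPM and the loaded ones 37930.0, 48632, 38092 and 28129 CPM. Only loaded replicate 4 fell inside the untreated range, just under its top. Ribosomal protein genes have many near-identical pseudogene copies, and how the authors' counting split such reads is not given in the sources used here, so single members are uncertain.

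Nuclear-encoded genes of oxidative phosphorylation, the respiratory chain and ATP synthase of mitochondria, also lay mostly above 0. Of 75 tested, 58 were above and 17 below, with a median of 0.40 (0.46 without loaded replicate 4). Over 20 alternative settings, each library left out included, this median ran from 0.30 to 0.50. At an unadjusted p under 0.05, 25 were higher and 1 lower, against 4.03% and 2.89% of all genes. There was no overlap in 9 that were higher and 1 that was lower, against 1.96% and 2.22% of all genes. By complex, the medians were 0.36 for complex I (28 of 37 above 0), 0.30 for complex II (2 of 4), 0.53 for complex III with cytochrome c (8 of 10), 0.24 for complex IV (7 of 10) and 0.51 for ATP synthase (13 of 14). Ndufb4, an accessory subunit of complex I, was at 30.3, 55.1, 36.9 and 26.9 CPM untreated and 119, 141, 73.3 and 136 CPM loaded, a log2 difference of 1.65 ± 0.41 (SE; adjusted p = 0.485 by edgeR). Ndufa2, of the same complex, was at 219, 510.0, 330.3 and 264 CPM untreated and 948, 908, 699 and 517 CPM loaded. Both showed no overlap. The member without overlap on the lower side was Sdhd, an anchor of complex II, chosen here after its values were seen, at 7.71, 6.92, 1.67 and 4.25 CPM untreated and 0, 0, 0 and 0.67 CPM loaded, too few counts to weigh.

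Proteasome and ubiquitin genes differed less. Of 39 tested, 24 were above 0, with a median of 0.20. At an unadjusted p under 0.05, 6 were higher and 0 lower, against 4.03% and 2.89% of all genes. The core particle subunit Psmb5 was at 88.2, 201, 80.4 and 252 CPM untreated and 218, 536, 507 and 235 CPM loaded. Its groups overlapped through untreated replicate 4. The ATPase of the cap Psmc5 was at 18.1, 69.2, 44.5 and 31.4 CPM untreated and 106, 86.1, 88.7 and 102 CPM loaded, without overlap. Psma5, a core particle subunit chosen after its values were seen, lay the other way, also without overlap. It was at 30.03, 85.5, 36.4 and 34.9 CPM untreated and 28.7, 18.2, 3.96 and 20.9 CPM loaded (unadjusted p = 0.178 by edgeR). Without overlap, 1 of the 39 was higher and 1 lower, against 1.96% and 2.22% of all genes.

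Transcripts that were higher at an unadjusted p under 0.05 were shorter, with a median length of 2182 nucleotides against 3232 for all tested genes and 3596 for those that were lower. With all genes split by length into 5 bins of equal size, the median log2 difference ran from 0.18 in the shortest bin through 0.01, -0.06 and -0.16 to -0.18 in the longest. Ribosomal and respiratory chain transcripts are short. By library, the mean log2 CPM of the shortest bin minus that of the longest was -0.65, -0.57, -0.85 and -0.80 in untreated replicates 1 to 4 and -0.20, -0.05, -0.72 and -0.59 in loaded ones. Loaded replicates 1 and 2 stood apart and replicates 3 and 4 lay in the untreated range. The part of transcript length in the ribosomal and respiratory values was not tested.

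**Figure D2:**
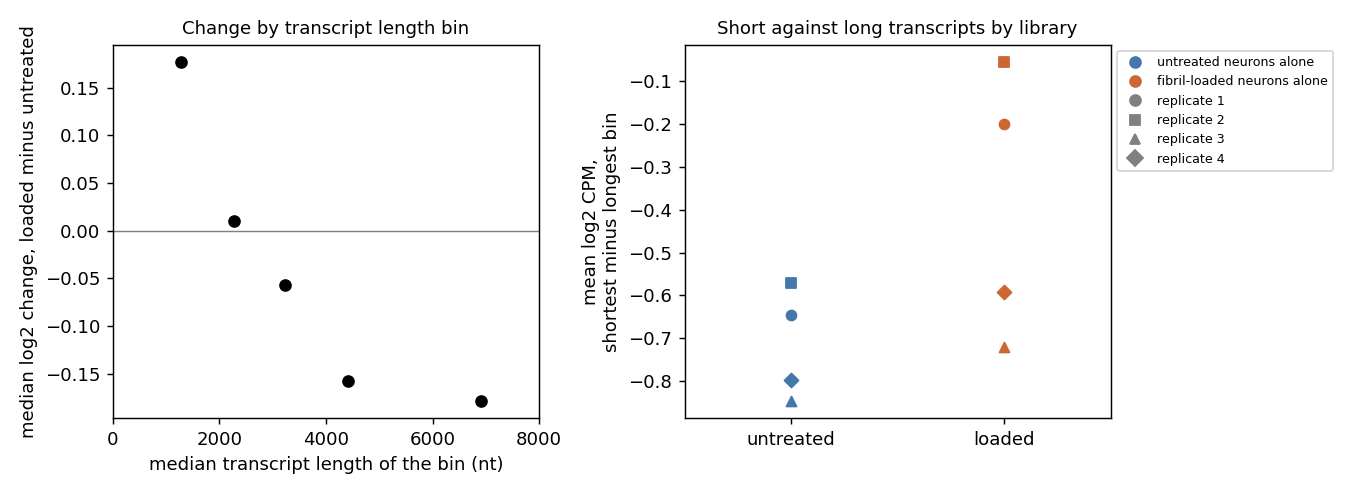
Left, the median log2 difference (loaded minus untreated) of all genes in each of 5 bins of transcript length, against the median length in nucleotides. Right, the mean log2 CPM of the shortest minus the longest bin in each library; loaded replicates 1 and 2, at -0.20 and -0.05, lie above the other 6 libraries (-0.85 to -0.57).

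Neuronal genes lay below 0, and their size turned on loaded replicate 4. All 18 excitatory neuron markers were below 0 (median -0.77), as were all 28 presynaptic genes (-0.83), 21 of 22 pan-neuronal genes (-0.56), 23 of 27 postsynaptic genes (-0.51) and 25 of 31 ion channels (-0.57). The members lower at an unadjusted p under 0.05, against 2.89% of all genes, were 1 of 18 excitatory markers, 1 of 28 presynaptic, 3 of 22 pan-neuronal, 1 of 27 postsynaptic and 5 of 31 ion channel genes, and 0 members were higher at that p. Summed presynaptic CPM were 3417, 8672, 8332 and 9765 in untreated replicates 1 to 4 and 2183, 1242, 4327 and 9079 in loaded ones. Loaded replicate 4 matched the upper untreated libraries, and untreated replicate 1 was closer to the loaded ones. Without loaded replicate 4 the medians were -1.44 for excitatory markers, -1.51 for presynaptic, -1.20 for pan-neuronal, -0.95 for postsynaptic and -0.95 for ion channel genes. Without loaded replicate 2 they were -0.50, -0.52, -0.37, -0.30 and -0.38. The pan-neuronal median was -0.34 without loaded replicate 1, and that of ion channels -0.37 without untreated replicate 4.

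Among presynaptic genes, Syn2, a synapsin that tethers synaptic vesicles, was at 252, 548, 633 and 593 CPM untreated and 89.0, 47.5, 242 and 363 CPM loaded, a log2 difference of -1.45 ± 0.46 (SE; adjusted p = 0.628 by edgeR). Untreated replicate 1 lay within the loaded range. The active zone scaffold Bsn was at 58.4, 191, 119.5 and 204 CPM untreated and 24.7, 9.93, 75.8 and 134 CPM loaded. Rph3a, a vesicle protein chosen after its values were seen, was the 1 of 28 presynaptic genes whose groups did not overlap. Of all genes, 2.22% were lower without overlap. Rph3a was at 86.1, 151, 159.7 and 88.7 CPM untreated and 49.6, 58.1, 46.1 and 71.2 CPM loaded (unadjusted p = 0.224 by edgeR). Sncb, β-synuclein, was at 156, 367, 458 and 497 CPM untreated and 181, 12.4, 226 and 448 CPM loaded, with overlap.

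Of postsynaptic and excitatory genes, Nrgn, the calmodulin-binding neurogranin and the most abundant of them, was at 4755, 6321, 4449.9 and 6422 CPM untreated and 2662, 1046, 2997 and 4892 CPM loaded. Camk2a, the kinase of postsynaptic densities, was at 835, 1349, 919.9 and 1261 CPM untreated and 331, 182, 704 and 1254 CPM loaded. Gria2, an AMPA receptor subunit, was at 561, 719, 650.2 and 641 CPM untreated and 263, 247, 527 and 563 CPM loaded, with loaded replicate 4 just above the lowest untreated library. Slc17a6, a vesicular glutamate carrier chosen after its values were seen, was the 1 of 18 excitatory markers without overlap. Of all genes, 2.22% were lower without overlap. Slc17a6 was at 40.0, 33.3, 29.1 and 24.8 CPM untreated and 0, 14.95, 15.01 and 10.3 CPM loaded (unadjusted p = 0.327 by edgeR).

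Several ion channel genes set loaded replicates 1 to 3 apart from loaded replicate 4. The sodium channels Scn2a and Scn8a were at 140.0, 297, 229 and 159 and at 157, 209, 176 and 183 CPM untreated. In the loaded libraries Scn2a was at 41.6, 33.8, 56.2 and 175 CPM and Scn8a at 42.2, 30.02, 55.1 and 171 CPM. The potassium channel Kcnq3, which carries the M current, was at 88.6, 239, 204 and 181 CPM untreated and 27.2, 22.2, 33.8 and 168 CPM loaded. In all 3 genes loaded replicate 4 reached the untreated range, and without it the log2 difference of Kcnq3 was -2.68 in place of -1.50. Cacna1a, the P/Q-type calcium channel of nerve terminals, was at 215, 294, 274 and 256 CPM untreated and 31.5, 29.7, 60.1 and 206 CPM loaded, with loaded replicate 4 just below the untreated libraries.

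Immediate early genes, which neuronal activity induces, were all below 0, 27 of 27, with a median of -0.91 and -1.84 without loaded replicate 4. At an unadjusted p under 0.05, 1 was lower and 0 higher, against 2.89% and 4.03% of all genes. The groups did not overlap in 1, which was lower, against 2.22% of all genes. Fos was at 93.3, 161, 174 and 73.0 CPM untreated and 2.11, 39.2, 28.1 and 63.6 CPM loaded, without overlap, a log2 difference of -1.91 ± 0.75 (SE; adjusted p = 0.695 by edgeR). Egr1 was at 176, 283, 392 and 364 CPM untreated and 38.3, 34.1, 44.4 and 193 CPM loaded, overlapping through untreated replicate 1 and loaded replicate 4. Markers of inhibitory neurons showed no common direction, with 7 of 15 above 0 and a median of -0.06.

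Glial markers moved with these lists, in the opposite direction to the neuronal ones. All 20 astrocyte markers were above 0, with a median of 0.69. At an unadjusted p under 0.05, 5 of them were higher, against 4.03% of all genes. Their summed CPM were 16361, 6331, 5639 and 7287 in the untreated libraries and 17662, 19555, 10795 and 9429 in the loaded ones. Untreated replicate 1 lay inside the range of the loaded libraries, and without it the median was 1.27. Without loaded replicate 4 it was 0.86. Gfap, the astrocyte filament, was at 183, 76.0, 96.2 and 13.2 CPM untreated and 136, 304, 416 and 188 CPM loaded, and Slc1a2, the glutamate carrier, at 2359, 1047, 973 and 1587 and 2941, 2450.3, 1175 and 1585 CPM. Gja1, the connexin of astrocyte gap junctions and chosen after its values were seen, was the 1 of 20 markers without overlap. Of all genes, 1.96% were higher without overlap. Gja1 was at 75.1, 48.3, 30.1 and 50.5 CPM untreated and 102, 91.3, 128 and 94.7 CPM loaded (unadjusted p = 0.189 by edgeR). Of the 20 astrocyte markers, 19 were above 0 in all 8 libraries, so astrocyte transcripts were present in both groups.

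Untreated replicate 1 had the highest astrocyte sum and the highest Nrf2 target sum of the untreated libraries, and the lowest presynaptic sum. The Nrf2 target sums were 17806, 8769.9, 9594 and 6404 CPM untreated and 30136, 31341, 17281 and 9878 CPM loaded, and the same 5 libraries stood highest in both sums, in the same order. Mt1, Gstm1, Hmox1 and other members are made by astrocytes too. The part of astrocyte content in the antioxidant, metallothionein and neuronal values was not tested. In bulk RNA, fewer cells of a type and less RNA per cell cannot be told apart.

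**Figure D3:**
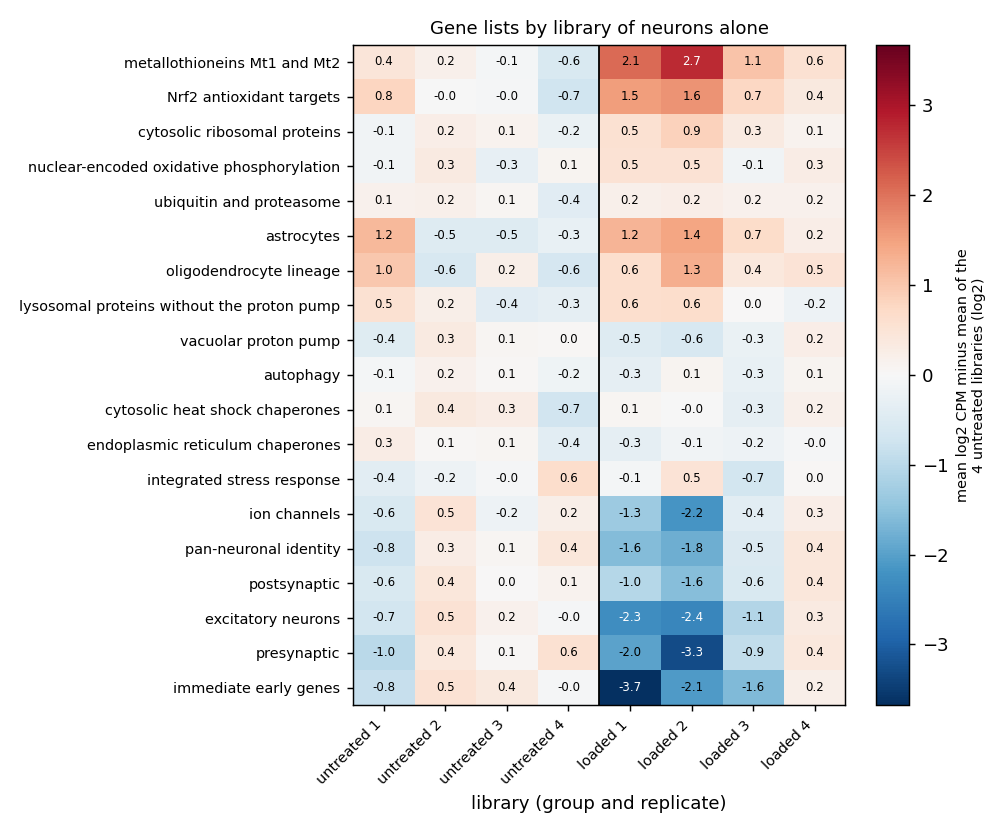
Mean log2 CPM of 19 gene lists in the 8 libraries of neurons alone, minus the mean of the 4 untreated libraries (colour and number, log2). Loaded replicates 1 and 2 show the widest values in both directions, from 2.7 for Mt1 and Mt2 to -3.7 for immediate early genes, and loaded replicate 4 is near 0 or above it for the neuronal lists.

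Oligodendrocyte lineage genes were above 0 in 13 of 17, with a median of 0.58 that was 1.01 without untreated replicate 1 and 0.28 without loaded replicate 2. Bcas1, of newly formed oligodendrocytes, was at 92.4, 98.2, 205 and 47.5 CPM untreated and 313, 476, 626 and 124 CPM loaded, and the myelin enzyme Cnp at 104, 77.9, 68.2 and 52.6 and 329, 381, 232 and 76.9 CPM. Pdgfra, the receptor that marks their precursors, lay the other way, at 120.3, 65.1, 73.5 and 87.4 CPM untreated and 52.1, 23.5, 22.8 and 50.2 CPM loaded, without overlap. Microglial markers were near 0 in both groups: their 18 genes summed to 42.1, 37.5, 58.4 and 17.0 CPM in untreated and 52.2, 39.8, 23.2 and 16.9 CPM in loaded libraries. P2ry12, Tmem119, Itgam and Spi1 were at 0 in all 8, and 12 of the 18 were at 0 in 6 or more. Of 10 vessel and fibroblast markers in the table, 4 were at 0 in all 8 libraries.

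By a rule on the smallest p, 12 genes above 4 in mean log2 CPM and without overlap were named in each direction, and 0 of the 24 passed the adjusted threshold. Snhg9, a small nucleolar RNA host gene without a protein, stood first among those that were higher, at 70.6, 166, 171 and 80.9 CPM untreated and 516, 743, 694 and 204 CPM loaded, a log2 difference of 2.14 ± 0.44 (SE; adjusted p = 0.37 by edgeR). It is annotated as antisense, and since the strand setting of the counting is not given in the sources used here, its reads and those of a gene on the other strand cannot be told apart. Abtb2, an ankyrin and BTB domain protein, was at 14.96, 9.91, 16.4 and 24.8 CPM untreated and 50.6, 85.9, 65.2 and 57.5 CPM loaded (1.97 ± 0.41; adjusted p = 0.37 by edgeR). The groups lay well apart. Nono, a paraspeckle protein, was at 70.9, 83.6, 87.3 and 120.2 CPM untreated and 230.1, 203, 209 and 176 CPM loaded.

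Fbxo2, which feeds glycoproteins to the proteasome in neurons, was at 113, 58.3, 66.3 and 36.6 CPM untreated and 237, 399, 220.2 and 127 CPM loaded. Atf5, a transcription factor of the stress response, was at 169, 134, 199 and 241 CPM untreated and 533, 552, 489 and 364 CPM loaded. Cytoskeletal genes here were Tubb4b, a β-tubulin, at 254, 308, 298 and 468 CPM untreated and 858, 1031, 906 and 529 CPM loaded, and the myosin light chain Myl6. The remaining higher genes were Ankrd40, Naa38, an N-terminal acetyltransferase subunit, Ndufb4, Rps29 and Nme2, a nucleoside diphosphate kinase, and the log2 differences of all 12 ran from 1.17 to 2.14.

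Among genes that were lower, Pdpk1, the kinase that activates Akt, was at 92.1, 187, 197 and 279 CPM untreated and 52.4, 41.0, 23.5 and 60.9 CPM loaded, a log2 difference of -2.09 ± 0.47 (SE; adjusted p = 0.446 by edgeR). Zcchc2, a zinc finger protein, was at 38.4, 62.5, 78.9 and 27.2 CPM untreated and 6.95, 9.81, 13.2 and 8.81 CPM loaded (-2.41 ± 0.58; adjusted p = 0.485 by edgeR). In Zcchc2 loaded replicate 4 lay inside the range of the other loaded libraries. Bnip3, a mitophagy receptor that hypoxia induces, was at 97.0, 292, 168 and 203 CPM untreated and 48.5, 43.2, 93.8 and 56.1 CPM loaded. Celf2, a splicing regulator of neurons, was at 725, 716, 686 and 738 CPM untreated and 259.8, 138, 365 and 552 CPM loaded. The others were Ube2j2, a ubiquitin enzyme of the endoplasmic reticulum, Ensa, Phactr3, Rbmx, Magi1, Prkci, Pdgfra and Akirin2, with log2 differences from -2.41 to -1.12 over the 12.

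**Figure D4:**
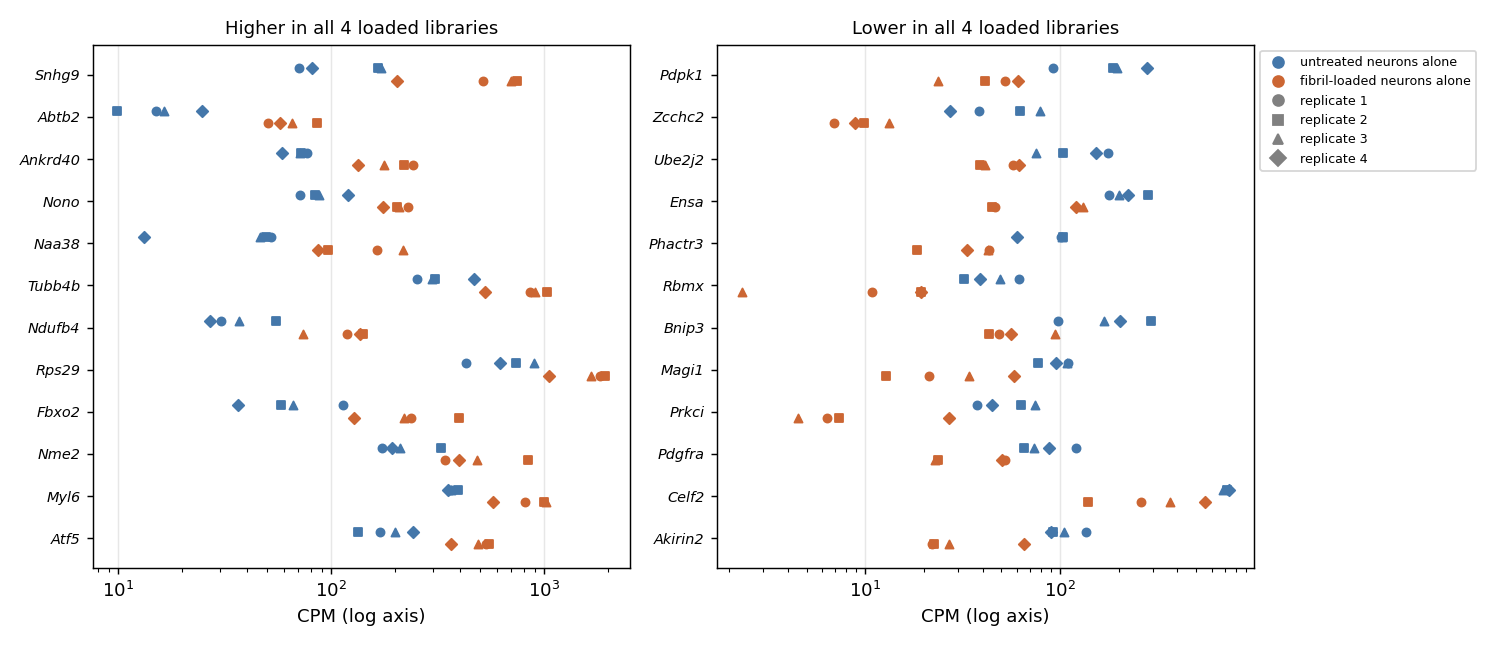
CPM (log axis) of the 12 genes with the smallest p in each direction among those whose groups did not overlap; untreated libraries in blue, loaded in orange, a marker shape per replicate. The genes were chosen for having no overlap, so the separation is by construction; loaded replicate 4 (diamond) is often the loaded library nearest to the untreated ones, as in Snhg9 (204 CPM against 516 to 743 CPM in the other loaded libraries).

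Without loaded replicate 4, edgeR called 7 genes at an adjusted p under 0.05, and leaving out any other library called 0. Among them, and named after their values were seen, Taldo1, Snhg9, the collagen Col11a1 and the actin cross-linker Flna were higher, and the synaptic adhesion gene Lrrc4c and Kcnq3 were lower. Lrrc4c was at 33.5, 91.1, 22.6 and 60.9 CPM untreated and 2.23, 2.92, 3.69 and 95.0 CPM loaded, so loaded replicate 4 had as much as the untreated libraries and the other 3 had little, with a log2 difference of -4.14 when it was left out. Flna was at 93.3, 44.8, 45.5 and 48.9 CPM untreated and 207, 280.5, 311 and 49.0 CPM loaded, the same split in the other direction. The library labelled loaded replicate 4 thus stood inside or close to the untreated range for these genes, and its label was kept.

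The routes by which fibrils enter and are broken down showed no common direction. Endocytosis and recycling genes were above 0 in 15 of 29 (median 0.01), fibril-binding receptors and heparan sulfate carriers in 10 of 23 (-0.09), autophagy genes in 14 of 30 (-0.03), cytosolic heat shock chaperones in 14 of 29 (-0.01), endoplasmic reticulum chaperones in 10 of 22 (-0.09) and integrated stress response genes in 13 of 23 (0.03). Single members stood out within them. Ehd1, a recycling endosome ATPase, was at 67.3, 108, 79.9 and 29.9 CPM untreated and 151, 237, 328 and 137 CPM loaded, without overlap (log2 difference 1.58 ± 0.42; adjusted p = 0.532 by edgeR). Pdia4, a disulfide isomerase of the endoplasmic reticulum, was at 22.6, 65.7, 101 and 29.96 CPM untreated and 158, 210.3, 270.1 and 87.9 CPM loaded (1.73 ± 0.43; adjusted p = 0.485 by edgeR). Its loaded libraries overlapped with the untreated ones through loaded replicate 4 alone.

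Of 22 lysosomal proteins outside the proton pump 14 were above 0 (median 0.36, and -0.04 without loaded replicate 2). At an unadjusted p under 0.05, 2 were higher, against 4.03% of all genes. Of the 16 subunits of the vacuolar proton pump 12 were below 0 (median -0.27) and 0 had such a p, against 6.92% of all genes. The difference between these sets was not tested. The cholesterol-binding lysosomal protein Npc2 was at 157, 134, 228 and 75.8 CPM untreated and 379.8, 515, 438 and 161 CPM loaded, and the membrane glycoprotein Lamp1 at 355, 262, 294 and 254 and 492, 654, 480.0 and 341 CPM. Both were higher in loaded replicates 1 to 3 than in any untreated library. Atp6v1b2, the pump subunit made in brain, was at 226, 444, 422 and 387 CPM untreated and 119.6, 151, 148 and 391 CPM loaded. Of autophagy genes, Map1lc3b, which coats autophagosomes, was at 208, 191, 205 and 138 CPM untreated and 536, 297, 324 and 191 CPM loaded, and the receptor Sqstm1 at 258, 382, 488 and 204 and 484, 451, 561 and 435 CPM.

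Genes linked to inherited Parkinson's disease were above 0 in 10 of 20, with a median of 0.01. At an unadjusted p under 0.05, 0 were higher and 3 lower, against 4.03% and 2.89% of all genes. The groups did not overlap in 1, which was lower, against 2.22% of all genes. Park7, the redox-sensitive DJ-1, was at 82.4, 58.8, 117 and 68.5 CPM untreated and 138, 148, 67.7 and 114 CPM loaded, with overlap. Uchl1, an abundant neuronal deubiquitinase, was at 197, 349.7, 374 and 347 CPM untreated and 95.5, 82.8, 206 and 285 CPM loaded. Synj1, a phosphatase that uncoats synaptic vesicles, was at 216, 290.1, 285 and 377 CPM untreated and 98.0, 47.2, 106 and 344 CPM loaded. In the last pair loaded replicates 1 and 2 were the lowest and loaded replicate 4 lay inside the untreated range. Genes of actin protrusions and tunnelling nanotubes, the thin bridges the series is about, were above 0 in 18 of 27 (median 0.26). Myo10, a myosin of filopodia, was at 139, 68.6, 60.5 and 54.8 CPM untreated and 128, 237, 167 and 52.8 CPM loaded.

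Genes of innate immune signalling were above 0 in 9 of 26 with a median of -0.61, but this was 0.04 without untreated replicate 1. Of them 0 had an unadjusted p under 0.05, against 6.92% of all genes. Interferon response genes were above 0 in 13 of 22. Apoptosis and p53 targets were above 0 in 15 of 24 (median 0.13), with Bad at 38.2, 60.6, 65.9 and 37.7 CPM untreated and 155, 83.5, 146 and 37.2 CPM loaded. Glycolysis genes were above 0 in 13 of 28 (median -0.08), and the 2 lactate dehydrogenase chains lay apart. Ldha was at 235, 424, 389 and 456 CPM untreated and 197, 169, 191 and 239 CPM loaded, with the loaded libraries lower except for overlap at untreated replicate 1. Ldhb was at 293, 247, 215 and 259 CPM untreated and 768, 486, 296 and 405 CPM loaded, without a loaded library below the untreated maximum of 293 CPM.

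The co-culture libraries gave a second fibril comparison with no library in common, though 1 model over all 16 libraries gave the spread for both. It too had 0 genes past the adjusted threshold (0.0%), with 483 at an unadjusted p under 0.05 (3.68%). Of the 257 genes higher without overlap in neurons alone, 161 (62.6%) were also above 0 in co-culture, and of the 292 lower ones 106 (36.3%) were above 0 there, against 47.1% of all genes. The medians in co-culture were smaller, at 0.15 and -0.27, against 1.20 and -1.66 in neurons alone, where the sets had been chosen for their separation. The neuronal lists kept their side, with co-culture medians of -0.86 for excitatory markers and -0.65 for presynaptic genes. Microglial markers summed to 832, 25.2, 62.5 and 15.3 CPM in untreated co-culture replicates 1 to 4. In loaded co-culture they summed to 1544, 38.0, 90.1 and 17.4 CPM. Libraries of neurons alone held 16.9 to 58.4 CPM, so several co-culture libraries held no more microglial transcripts than those.

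The antioxidant, mitochondrial and astrocyte lists had other values there, and the difference of list medians was not tested. In co-culture the median of Nrf2 targets was 0.04, that of ribosomal proteins 0.15, that of oxidative phosphorylation -0.02 and that of astrocyte markers -0.38. For Mt1 the log2 difference in co-culture was -0.10 ± 0.45 (SE), for Mt2 0.23 ± 0.47 and for Taldo1 0.31 ± 0.35. The difference between the 2 fibril effects was tested directly as an interaction, and 0 of 13139 genes passed (0.0%), with 529 at an unadjusted p under 0.05 (4.03%), while DESeq2 called 187. The genes with the smallest p at a mean log2 CPM above 4 were Ndufb4, Zcchc2, Naa38, Mpst, a sulfur transferase, and Clcn7, the chloride exchanger of lysosomes, each with an adjusted p of 1.0 by edgeR's interaction test. Clcn7 was at 18.5, 38.5, 30.3 and 16.4 CPM in untreated neurons alone and 82.9, 89.9, 115 and 41.4 CPM in loaded ones (1.67 ± 0.51), and its log2 difference in co-culture was -0.64 ± 0.49. A response of neurons alone that is absent in the libraries labelled co-culture was thus not shown by edgeR for any gene. As several of those libraries held few microglial transcripts, the comparison does not speak for microglia themselves.

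**Figure D5:**
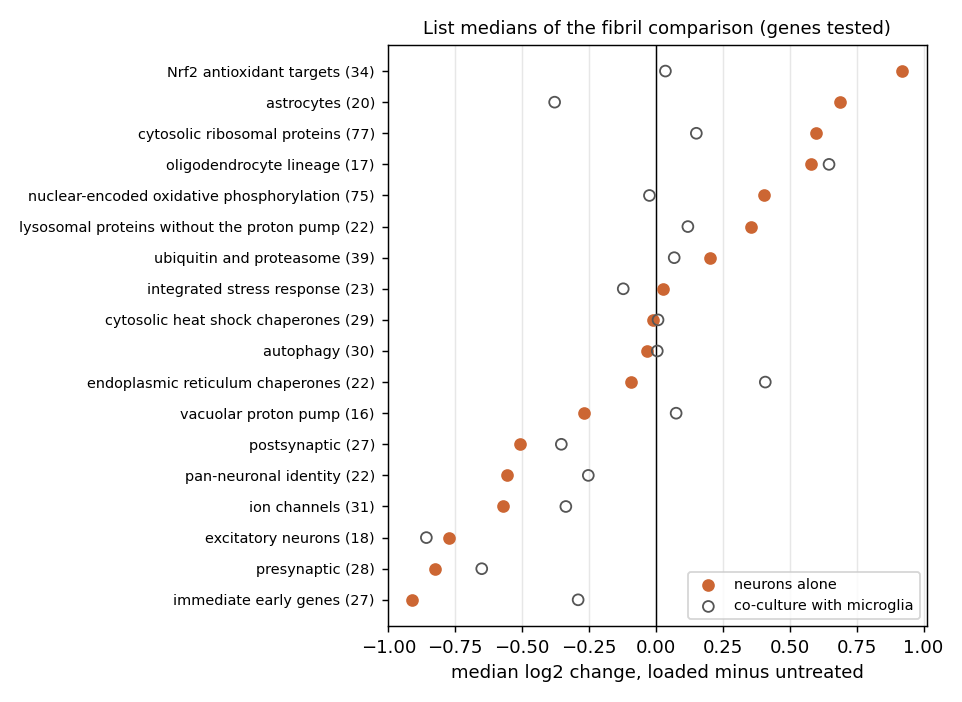
Median log2 difference (loaded minus untreated) of 18 gene lists in neurons alone (filled) and in co-culture with microglia (open), with the number of genes tested in brackets. Nrf2 targets lie at 0.92 alone and 0.04 in co-culture, and astrocyte markers at 0.69 and -0.38, while excitatory markers lie below 0 in both (-0.77 and -0.86).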

How the data were processed

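RNA libraries came from the QuantSeq 3′ forward kit, from total RNA isolated with an RNeasy micro kit, per the labels' protocols. STAR, Partek, DESeq2 and the mouse assembly mm10 are named, without versions, per the submitters' processing notes; which program counted reads, with which annotation, strand option or molecular identifiers, is not given in the sources used here. Raw counts of 16934 genes were deposited without normalization. The second deposited table holds a score, normalized by the authors and rounded to integers: 99.97% of entries equalled the raw count multiplied by 1 factor per library to within 0.6.

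Groups came from the labels. In R 4.3.3, edgeR 4.0.16 kept 13139 genes by filterByExpr (minimum count 10, minimum total 15), scaled them by TMM and fitted 1 robust quasi-likelihood model over all 16 libraries with a mean per group. p-values were adjusted by Benjamini and Hochberg over all genes and called under 0.05. CPM used the TMM scaling, and log2 CPM a prior count of 2. The fit was tested on simulated data. Alternatives were DESeq2 1.42.0, limma 3.58.1 (voom, and log2 of the deposited score with a pseudocount of 1 or 4), other scalings and filters, the 8 libraries alone, a replicate block and each library left out. Positions are from GENCODE M21, in which 96.2% of symbols matched 1 gene, and promoters from RefSeq. Python 3.11.15 with pandas 2.3.3 and matplotlib 3.10.9 joined and plotted the values. Counts of PCR copies are not independent molecules, so depth covers counting error only.

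The comparison, the gene lists (35) and the members named were chosen with earlier results of these data known. Named genes were any called gene, the 12 with the smallest p in each direction at a mean log2 CPM above 4 without overlap, up to 4 members of each list by p, the 3 most abundant genes of each cell type list, the synuclein family, and the 5 with the smallest p for the difference from co-culture; predicted gene models were skipped. Others are said to have been chosen after their values were seen. Some genes that the rule covers are not reported here.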

Additional observations from a re-analysis of the deposited data

Results flagged for a closer look

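A sample far from the other 3 of its group was looked for in 294 groups of 4 (genes and lists, by group), and 21 were flagged by the gap to the nearest other library over the group's range. Chance flags about 1 in 20 groups where genes are unselected and values normal, and the groups share libraries. The genes searched were those named in the text. Some were named because leaving out loaded replicate 4 changed their call, as Lrrc4c and Flna. That rate therefore does not apply here, and the tally for loaded replicate 4 is partly built in.

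Of the 21, 10 were loaded replicate 4. It was low for the antioxidant genes Taldo1, at 345 CPM against 999 to 1112 CPM in the other loaded libraries, and Cat, the peroxisomal catalase, at 96.7 CPM against 225 to 236 CPM. It was high for neuronal and other genes: Kcnq3 at 168 CPM (others 22.2 to 33.8), Scn2a at 175 CPM (33.8 to 56.2), Egr1 at 193 CPM (34.1 to 44.4), Lrrc4c at 95.0 CPM (2.23 to 3.69) and the proton pump gene Atp6v1b2 at 391 CPM (120 to 151). Akirin2 stood at 65.4 CPM (22.0 to 26.9), Prkci at 26.8 CPM (4.50 to 7.36) and Sdhd at 0.67 CPM where the others were at 0.

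Untreated replicate 1 was flagged 5 times. It was high for the astrocyte marker sum, at 16361 CPM against 5639 to 7287 CPM, for Slc7a11 at 1007 CPM (156 to 218), for Flna at 93.3 CPM (44.8 to 48.9) and for Myo10 at 139 CPM (54.8 to 68.6). It was low for Uchl1 at 197 CPM (347 to 374).

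Untreated replicate 4 was low for Naa38 at 13.2 CPM (46.4 to 52.1) and Phactr3 at 59.8 CPM (101 to 103), and high for the innate immune sum at 1771 CPM (1367 to 1405). Untreated replicate 2 was high for Atp5e at 663 CPM (301 to 361) and Psma5 at 85.5 CPM (30.03 to 36.4). Loaded replicate 3 was high for the endoplasmic reticulum chaperone sum at 3893 CPM (2883 to 3035).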

How the results depend on the processing

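The count of 0 genes called for fibrils in neurons alone was the same in every setting except DESeq2 (173) and without loaded replicate 4 (7), so leaving out 1 library gave 0 to 7. For the difference from co-culture it was 0 except with DESeq2 (187). At an unadjusted p under 0.05, the 529 higher genes ranged from 389 to 711 and the 380 lower ones from 255 to 756 with 1 library left out; the lower count was 667 with limma-voom, 585 and 599 with limma at a pseudocount of 1 and 4, 240 with at least 10 CPM in 4 libraries and 226 with the 8 libraries alone. The higher against lower split was 449 to 443 with library totals, 435 to 467 with Rn45s also left out of them, and 614 to 667 with limma-voom, and library totals took the median of all genes from -0.06 to -0.14. A log2 difference of 113 genes did not reverse in any of 2259 pairs of gene and setting. The 113 are genes named in the text, many chosen for a small p, for no overlap or after their values were seen. The lack of reversals is thus partly built in. Of the pairs, 36 passed the threshold, 30 of them with DESeq2 and 6 without loaded replicate 4. Over all settings the list medians kept their side for Nrf2 targets (0.75 to 1.35), ribosomal proteins (0.47 to 0.71), oxidative phosphorylation (0.30 to 0.50), astrocyte markers (0.55 to 1.27), excitatory markers (-1.44 to -0.50), presynaptic genes (-1.51 to -0.52) and immediate early genes (-1.84 to -0.61). The labels give no replicate numbers, but library codes in the titles come in 4 neighbouring runs, each with a library of every group, and the numbers used here follow them. No label says that a run shares a culture or animal. Same-numbered libraries did not deviate together throughout (r of 0.22, -0.02, 0.05 and 0.15, against -0.23 to 0.13 for differently numbered ones). The values 0.22 and 0.15 lay above every differently numbered pair, so a pairing is neither shown nor excluded. Within all 4 such pairs the summed CPM of Nrf2 targets and astrocyte markers were higher in the loaded library and those of presynaptic genes lower. The sums of endocytosis and recycling genes were also higher in all 4 and those of Parkinson's disease genes lower, though both medians were 0.01. Agreement of the 4 pairs thus also arose in lists without a common direction. With a replicate block 0 genes were called, with 505 higher and 354 lower at an unadjusted p under 0.05. The cause of these shifts was not tested. The common biological coefficient of variation was 1.17 with 4 libraries a group, and depth was not compared with it as a limit.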

Other observations

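Other genes that the rule on lists named are given here, with none past the adjusted threshold. Tubb2b, a β-tubulin of young neurons, was at 3036, 4951, 4161 and 2487 CPM untreated and 6735, 12760.2, 8167 and 3757 CPM loaded, with loaded replicate 4 inside the untreated range. Actb, cytoplasmic actin, was at 5735, 3755, 4066 and 5909 CPM untreated and 8853, 7142, 8298 and 5099 CPM loaded. Rab5c, a GTPase of early endosomes, was at 295, 481, 470.1 and 227 CPM untreated and 529, 1143, 1096 and 396 CPM loaded. Mfn1, which fuses mitochondrial outer membranes, was at 74.2, 55.1, 80.4 and 45.8 CPM untreated and 101, 151, 216 and 87.6 CPM loaded, higher in every loaded library. Abca1, which exports cholesterol, was at 253, 92.0, 73.2 and 41.5 CPM untreated and 22.3, 85.2, 18.8 and 7.95 CPM loaded, with loaded replicate 2 inside the untreated range. Gap43, the growth cone protein, was at 404, 459.6, 524 and 356 CPM untreated and 49.0, 73.4, 207 and 422 CPM loaded, with only loaded replicate 4 among the untreated libraries.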
